A study of Mus musculus with 222 samples.

Results

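The normal mammary glands of this study were 8 of its 222 arrays, and the 5 from mice carrying the MMTV-ErbB2 transgene were compared with the 3 from wild type mice. They were chosen by GEO's labels for tissue and genotype, and no measured value was used to choose them. The other 214 arrays were mammary tumors and entered only where tumor values are named. The MMTV-ErbB2 glands comprised 3 from FVB/N mice (FVB glands 1 to 3) and 2 from F1 hybrids of C57BL/6 and FVB/N (F1 glands 1 and 2), and all 3 wild type glands came from F1 hybrids. In these mice the ErbB2 protooncogene is driven by the promoter of the mouse mammary tumor virus (MMTV), whose activity is not limited to mammary tissue. No FVB wild type gland was analysed here, so genotype and background cannot be told apart between FVB MMTV-ErbB2 and F1 wild type glands. No source used here gives the age of the mice, their reproductive stage, the gland sampled or how it was dissected. Total RNA was hybridised to Affymetrix mouse gene arrays with 35556 probe sets, and all levels below are log2 values after robust multiarray average (RMA) normalization by the authors.

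ErbB2 is a receptor tyrosine kinase of the epidermal growth factor receptor family that signals through the ERK and PI3K pathways, mostly as a partner of the other family members. The mammary gland is a ductal tree of luminal cells, which secrete milk in lactation, and basal myoepithelial cells, which contract around them. The tree lies in a stroma of fat, fibroblasts, vessels and leukocytes, among them mast cells and often a lymph node. Arrays of whole tissue cannot tell fewer cells of a type from less RNA per cell.

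The label of the tissue was checked against its markers. Luminal keratins and caseins were among the highest values of every gland, with Krt18 from 11.45 to 13.06 and Csn2, which encodes beta-casein, from 12.40 to 14.05. Markers of fat were uneven. Adipoq, which encodes the adipocyte hormone adiponectin, lay between 5.47 and 6.08, and 18.9% of all probe sets had a lower mean over the glands. Lep, the gene of leptin, lay between 5.96 and 6.87, with 26.5% of probe sets below it. Fabp4, the fatty acid binding protein of adipocytes and also of capillary endothelium, reached 9.75 to 11.96. Thus 2 defining adipocyte genes stood in the lower part of the arrays in all 8 glands. The mean level of all 12 measured adipocyte genes was 7.77 to 8.31, above the array medians of 7.17 to 7.40.

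Before any comparison, 1 gland stood apart. The values of FVB gland 3 correlated with those of the other 7 glands at 0.760 to 0.828 (Pearson's r across probe sets, which are not independent replicates), whereas the other 7 correlated with each other at 0.957 to 0.986. Its interquartile range was 1.86, against 2.20 to 2.36 in the other 7 glands, and its median was 7.40, against 7.17 to 7.21. Dcn, which encodes decorin, an abundant fibroblast proteoglycan, was 10.53 in FVB gland 3 and 13.25 to 13.69 in the other 4 MMTV-ErbB2 glands, against 12.73 to 13.38 in wild type glands. The main comparison kept FVB gland 3, and the same fit without it is given beside the main results. Many members of gene lists are named with their difference without FVB gland 3 alone.

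The labels of genetic background were also examined, using probe sets that separated the tumors by labelled background. Over all 35556 probe sets, 3 did not overlap between the 26 FVB tumors and the 28 F1 tumors, and all were higher in F1 tumors. Among these tumors, 1 labelled FVB and 1 labelled F1 carry titles numbered like those of backcross tumors, and without them 10 probe sets did not overlap, the 3 included. The most separated, probe set 10375121 on the array, which has no gene symbol in the annotation, lay between 7.30 and 7.95 in FVB tumors and between 10.80 and 11.75 in F1 tumors. The backcross tumors (F1BX, from F1 hybrids crossed back to FVB/N) fell on both sides of the middle value of 9.38, with 64 below and 96 above. In glands, this probe set was 12.06, 8.41 and 10.45 in FVB glands 1, 2 and 3 and 10.36 and 8.00 in F1 MMTV-ErbB2 glands 1 and 2, against 12.61, 12.71 and 12.59 in wild type glands. No gland lay within either tumor range, and the wild type glands were above all F1 tumors. By the middle value alone, FVB glands 1 and 3 were on the side of the F1 tumors. The gland labelled F1 MMTV-ErbB2 replicate 2 was by this value on the side of the FVB tumors. Whether the middle value of tumors holds for glands was not tested. Probe set 10375123 placed each gland on the same side as 10375121. Its values ran close to those of 10375121, with 11.71, 8.29 and 10.17 in FVB glands 1, 2 and 3. It also had 64 backcross tumors below and 96 above its middle value. These 2 probe sets therefore cannot be counted as separate markers. Hspa8, a heat shock chaperone and the last of the 3, lay between 11.05 and 12.11 in FVB tumors and between 12.4 and 13.29 in F1 tumors. It was 12.96, 12.24 and 12.04 in FVB glands and 12.8 and 12.58 in F1 MMTV-ErbB2 glands, against 13.04, 13.26 and 13.25 in wild type glands. By the middle value of Hspa8, 12.25, FVB glands 2 and 3 and both F1 MMTV-ErbB2 glands were on the side of their labels. FVB gland 2 lay between the tumor ranges, just below this value, and FVB gland 1 was within the F1 range. FVB gland 1 was the only gland on the other side from its label in all 3 probe sets. A further gene, D17H6S56E-5 on chromosome 17, was 9.57, 7.13 and 9.75 in FVB glands, 10.20 and 7.00 in F1 MMTV-ErbB2 glands and 11.60, 12.03 and 11.61 in wild type glands. Among tumors it ranged from 8.42 to 9.92 in FVB and from 8.76 to 12.97 in F1, with 2 F1 tumors inside the FVB range. FVB gland 2 and F1 MMTV-ErbB2 gland 2 lay below both ranges. The backgrounds of the MMTV-ErbB2 glands are given below as labelled. The comparisons that rest on them are also given without the glands that went against their labels by the middle value of probe set 10375121.

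**Figure D1:**
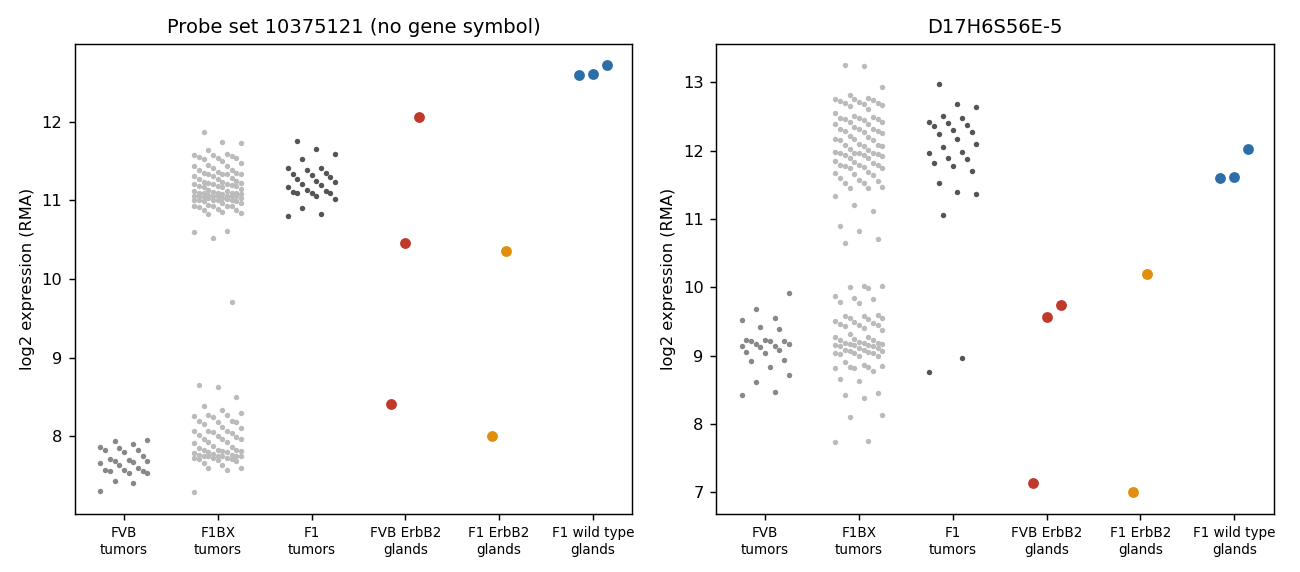
Log2 expression (y axis) of probe set 10375121, left, and of D17H6S56E-5, right, in each tumor (grey, small points) and each normal gland (colored, large points), by labelled kind (x axis). For probe set 10375121, FVB tumors lay between 7.30 and 7.95 and F1 tumors between 10.80 and 11.75, and no gland lay within either range. The glands labelled FVB and F1 MMTV-ErbB2 were spread from 8.00 to 12.06, and the wild type glands lay from 12.59 to 12.71.

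Between the 5 MMTV-ErbB2 and the 3 wild type glands, 42 probe sets (0.118%) differed at an adjusted p under 0.05 by limma with Benjamini-Hochberg adjustment over all probe sets. A single probe set was higher in MMTV-ErbB2 glands (0.00281%) and 41 were lower (0.115%). Of the 42, 34 carried 1 gene symbol. At an unadjusted p under 0.05, 2835 probe sets differed. Without FVB gland 3 the count was 3322 (9.34%), comprising 2068 higher (5.82%) and 1254 lower (3.53%), and 688 of them were at least 2-fold higher and 477 at least 2-fold lower. All 42 probe sets were among the 3322 and had the same direction. Of the 19938 genes with a symbol, 6.97% rose and 4.41% fell without FVB gland 3, the shares to set beside the counts of list members below. Values of the 5 and the 3 glands did not overlap for 2689 probe sets (7.56%), of which 1216 were higher in MMTV-ErbB2 glands (3.42%) and 1473 lower (4.14%). Without FVB gland 3, the groups did not overlap for 7504 probe sets (21.1%). The count with all 8 glands depended on each gland: it was 22 without F1 MMTV-ErbB2 gland 2 and 0 when FVB gland 1, FVB gland 2, F1 MMTV-ErbB2 gland 1 or any of the 3 wild type glands was left out. Without FVB gland 3 and any other gland in turn, it ranged from 1799 to 3569.

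Erbb2 itself was higher in all 5 glands labelled MMTV-ErbB2. The probe set of Erbb2 (10380896, a gene on chromosome 11) gave 10.14, 9.05 and 10.20 in FVB glands 1, 2 and 3 and 9.78 and 10.48 in F1 glands 1 and 2, against 8.26, 8.30 and 8.35 in wild type glands. The groups did not overlap, and FVB gland 2 was the lowest of the 5. The log2 difference was 1.63 (standard error 0.304), 3.09-fold, with an adjusted p of 0.101 from limma, and without FVB gland 3 it was 1.56 (standard error 0.284) with an adjusted p of 0.00997. The exact two-sided permutation test of 5 against 3 glands gave p = 0.0357, the smallest that its 56 splits allow, and 0.0571 without FVB gland 3, the smallest that 35 splits allow. Every probe set whose groups did not overlap has the same p, 7.56% of all with 8 glands and 21.1% without FVB gland 3. In the 214 tumors the level ranged from 8.32 to 12.86, and its median of 12.42 was above every gland. Signal from the transgene and from the mouse gene was not separated.

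The other receptors and ligands of the family mostly did not pass the test. Of 13 measured genes of the family, 0 passed with 8 glands, and without FVB gland 3 Erbb2 rose and Erbb3 fell. The shares of all genes with a symbol were 6.97% higher and 4.41% lower in this fit. Erbb3, the kinase-impaired partner that ErbB2 uses to reach PI3K, was 8.71, 9.01 and 8.58 in FVB glands and 8.5 and 9.93 in F1 MMTV-ErbB2 glands, against 10.34, 10.87 and 9.91 in wild type glands. The log2 difference was -1.43 (adjusted p = 0.211, limma) with 8 glands and -1.34 (0.0371) without FVB gland 3, and the groups overlapped by the values of F1 gland 2 and wild type gland 3. Egfr had a difference of 0.08 without FVB gland 3 (adjusted p = 0.825, limma), and the ligand genes Egf, Tgfa, Ereg, Btc, Hbegf and Nrg1 to Nrg4 had differences from -0.45 (Hbegf) to 0.25 (Btc), none of which passed.

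Genes that ERK signaling induces did not pass as higher in MMTV-ErbB2 glands. In a list of 14, a count of 0 is near the share of all genes. Without FVB gland 3, 6.97% of genes with a symbol rose and 4.41% fell. Of 14 ERK-induced genes, 0 passed the test with 8 glands, and without FVB gland 3 0 rose and 2 fell. Their median difference in this fit was -0.28, beside -0.03 for all 19938 genes with a symbol. Those that fell were Ccnd1, which encodes cyclin D1, with a difference of -0.98 (adjusted p = 0.0154, limma), and Phlda1, with -0.95 (0.0135). Dusp6, an ERK phosphatase and feedback target, was 9.0, 8.56 and 8.35 in FVB glands and 9.24 and 9.50 in F1 MMTV-ErbB2 glands, against 9.50, 9.87 and 9.87 in wild type glands. Its highest MMTV-ErbB2 value thus lay at the lowest wild type value, and its difference did not pass (adjusted p = 0.417, and 0.0853 without FVB gland 3). Among 11 genes of the PI3K, AKT and mTOR pathway, Pik3cb, a catalytic subunit of PI3K, was the only member that passed without FVB gland 3, with a difference of -1.30 (adjusted p = 0.0151). Of 11 genes that neighbour Erbb2, Ikzf3, Cdk12 and Med1 rose without FVB gland 3 and Grb7 fell. Ikzf3, a lymphocyte transcription factor, had the largest of these differences, 2.10.

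**Figure D2:**
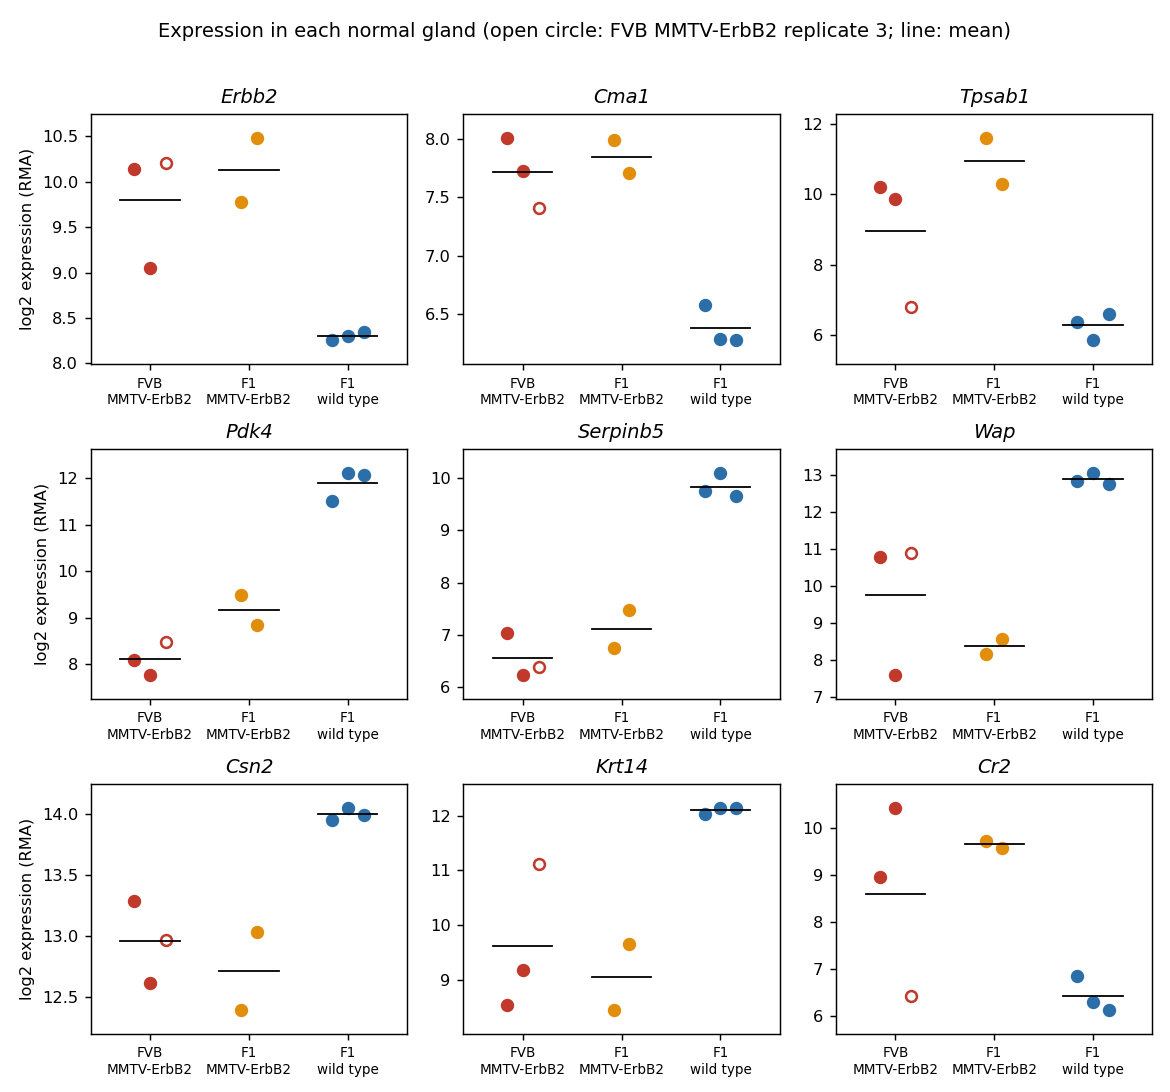
Log2 expression (y axis) of 9 genes in each normal gland, by labelled kind (x axis). Points are glands, the open circle is FVB MMTV-ErbB2 replicate 3 and the lines are means; Erbb2 lay between 9.05 and 10.48 in MMTV-ErbB2 glands and between 8.26 and 8.35 in wild type glands.

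The only probe set that passed as higher in MMTV-ErbB2 glands with all 8 arrays was that of Cma1, which encodes chymase, a protease of mast cell granules. Cma1 (probe set 10420225, chromosome 14) was 8.01, 7.73 and 7.41 in FVB glands and 7.99 and 7.71 in F1 MMTV-ErbB2 glands, against 6.58, 6.29 and 6.28 in wild type glands. All 5 values were above all 3, with a log2 difference of 1.39 (standard error 0.198, adjusted p = 0.0495, limma). Cma1 no longer passed in other fits of the same 8 arrays, with adjusted p of 0.0622 with a trend and robust prior, 0.0636 after centring, 0.0805 after quantile normalization, 0.0524 with a replicate block and 0.0946 with equally weighted group means. It also no longer passed when any single gland other than FVB gland 3 was left out (0.0788 to 0.383), and its adjusted p was 0.00103 without FVB gland 3. Tpsab1, which encodes mast cell tryptase, had the largest difference in this direction among genes whose groups did not overlap. Tpsab1 was 10.19, 9.86 and 6.79 in FVB glands and 11.59 and 10.29 in F1 MMTV-ErbB2 glands, against 6.37, 5.87 and 6.59 in wild type glands. FVB gland 3 was just above the wild type glands and the other 4 were far above them. The difference of 3.46 (standard error 0.874) did not pass with 8 glands (adjusted p = 0.22, limma) and was 4.20 (standard error 0.366, adjusted p = 0.000845) without FVB gland 3, 18.4-fold. The exact two-sided permutation p was 0.0357 over 8 glands and 0.0571 without FVB gland 3, in each case the smallest possible. As for Erbb2, every probe set without overlap has this p (7.56% with 8 glands, 21.1% without FVB gland 3). The gene was also chosen with earlier results of these data known.

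Of the 12 measured mast cell genes, 1 rose with all 8 glands and 8 rose without FVB gland 3, while 0 fell. Over all genes with a symbol, the shares without FVB gland 3 were 6.97% higher and 4.41% lower. The median difference of the list was 1.22 without this gland and 1.14 with it, beside -0.03 and 0.05 for all genes. Mcpt4, another chymase of connective tissue mast cells, was 11.35, 10.90 and 8.22 in FVB glands and 11.27 and 10.86 in F1 MMTV-ErbB2 glands, against 8.19, 7.87 and 7.91 in wild type glands. Again FVB gland 3 was close to the wild type level. Cpa3, the mast cell carboxypeptidase, was 10.27, 9.63 and 6.81 in FVB glands and 10.44 and 9.87 in F1 MMTV-ErbB2 glands, against 6.91, 6.61 and 7.12 in wild type glands, so that FVB gland 3 was within the wild type range. Tpsb2, a second tryptase gene that is close in sequence to Tpsab1, Hdc, the enzyme that makes histamine, the receptor gene Mrgprb1 and the transcription factor gene Gata2 also rose without FVB gland 3, by 1.26, 1.57, 1.18 and 0.55.

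Other defining mast cell genes stayed low in every gland. Ms4a2, the beta chain of the IgE receptor, lay between 4.29 and 5.0, with 7.16% of probe sets below it, and Fcer1a, the alpha chain, between 5.24 and 6.21, with 16.9% below it. Neither passed the test. Kit, the receptor that mast cells require and that luminal progenitors also express, was 9.94, 9.78 and 7.68 in FVB glands and 10.19 and 10.59 in F1 MMTV-ErbB2 glands, against 10.01, 10.48 and 10.19 in wild type glands, with overlapping groups.

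Genes lower in MMTV-ErbB2 glands made up most of the 42. Pdk4, the kinase that closes pyruvate dehydrogenase in fasting, fell the most among genes with a symbol. Pdk4 (probe set 10543017, chromosome 6) was 8.10, 7.78 and 8.49 in FVB glands and 9.49 and 8.84 in F1 MMTV-ErbB2 glands, against 11.51, 12.11 and 12.07 in wild type glands. The difference was -3.36 (standard error 0.368, adjusted p = 0.0304, limma), 10.2-fold lower, and -3.34 without FVB gland 3. Serpinb5, which encodes maspin, a serpin of myoepithelial cells, was 7.03, 6.24 and 6.39 in FVB glands and 6.75 and 7.48 in F1 MMTV-ErbB2 glands, against 9.75, 10.10 and 9.66 in wild type glands. The groups were more than 2 units apart, and the difference was -3.06 (standard error 0.292, adjusted p = 0.0224), 8.33-fold lower. For both genes FVB gland 3 was like the other MMTV-ErbB2 glands.

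The other 8 genes named as falling with all 8 glands had differences from -2.87 to -2.40. They were Slc28a3, a nucleoside transporter, Fermt1, the kindlin of epithelial cells, Cnn1, a calponin of smooth muscle and myoepithelium, Bhlhe41, a repressor of the circadian clock, Cxcl14, an epithelial chemokine, Muc4, a membrane mucin that binds ErbB2, Pigr, the receptor that carries IgA into milk, and Ankrd22. Muc4 was 8.19, 8.12 and 8.45 in FVB glands and 7.74 and 8.76 in F1 MMTV-ErbB2 glands, against 10.73, 11.26 and 10.26 in wild type glands. Pigr was 7.67, 7.15 and 8.74 in FVB glands and 7.34 and 8.20 in F1 MMTV-ErbB2 glands, against 10.38, 10.56 and 9.99 in wild type glands. In both genes all 5 values were below all 3. Among the remaining genes of the 42, picked after their values were seen, were the transcription factor gene Sox9 (-2.03), the vitamin D receptor gene Vdr (-1.94), Lgr4 (-2.18), an R-spondin receptor gene, and Yap1 (-1.29), an effector of the Hippo pathway. Fabp3, a fatty acid binding protein of muscle and of lactating mammary epithelium, missed the threshold with 8 glands. Fabp3 was 6.86, 6.36 and 9.06 in FVB glands and 6.26 and 6.41 in F1 MMTV-ErbB2 glands, against 10.70, 11.14 and 10.83 in wild type glands. Its difference was -3.90 (adjusted p = 0.0614, limma), and without FVB gland 3 it was -4.42 (1.52e-05), 21.4-fold lower and with the lowest adjusted p of all probe sets.

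Milk protein genes were lower in MMTV-ErbB2 glands, Wap the most. Casein and whey protein genes are switched on by prolactin through STAT5, which binds the sequence TTCNNNGAA. The promoters of 3 of these genes are shown here because their levels were lower together, as the 250 bases before the annotated start in RefSeq (mouse build GRCm38.p6), with any match to TTCNNNGAA in capitals. The motif reads the same on both strands. Csn2 lies at chr5:87699426-87699675 on the minus strand, Csn1s1, which encodes an alpha-casein, at chr5:87665958-87666207 on the plus strand, and Wap, whey acidic protein, at chr11:6638650-6638899 on the minus strand.
Csn2: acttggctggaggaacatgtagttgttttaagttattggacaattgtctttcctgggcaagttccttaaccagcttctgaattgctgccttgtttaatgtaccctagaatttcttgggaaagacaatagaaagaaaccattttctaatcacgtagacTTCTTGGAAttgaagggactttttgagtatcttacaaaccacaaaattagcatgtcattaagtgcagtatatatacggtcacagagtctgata
Csn1s1: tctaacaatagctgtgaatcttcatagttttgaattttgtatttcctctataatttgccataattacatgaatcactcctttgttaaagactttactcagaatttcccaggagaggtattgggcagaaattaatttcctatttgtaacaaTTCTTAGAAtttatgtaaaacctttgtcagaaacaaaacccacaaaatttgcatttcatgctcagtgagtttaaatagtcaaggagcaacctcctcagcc
Wap: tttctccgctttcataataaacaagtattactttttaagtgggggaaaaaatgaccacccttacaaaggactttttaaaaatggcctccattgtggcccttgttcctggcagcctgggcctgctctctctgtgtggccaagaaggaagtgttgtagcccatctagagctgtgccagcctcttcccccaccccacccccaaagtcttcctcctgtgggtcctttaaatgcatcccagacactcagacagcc

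In these windows Csn2 and Csn1s1 held 1 match each, ending 85 and 92 bases before the start, and Wap held 0. Of the 13 measured milk genes, 9 had a promoter in the table, and 3 of the 9 held a match, the third being Glycam1. Among all 32851 promoters of this length, 2306 (7.02%) held a match. These were counted singly, whereas a list gene counted if any of its promoters held a match, so the shares are not strictly alike. Of genes with a promoter, 1 of 8 in the luminal list, 0 of 6 in the basal list and 0 of 10 in the mast cell list held a match. A match is a description of these letters, and binding was not measured.

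Wap was 10.80, 7.61 and 10.90 in FVB glands 1, 2 and 3 and 8.17 and 8.58 in F1 MMTV-ErbB2 glands, against 12.86, 13.07 and 12.78 in wild type glands. The 5 values spread over more than 3 units, with FVB glands 1 and 3 highest and FVB gland 2 lowest, and all were below the wild type glands. The difference of -3.69 (standard error 0.752) did not pass with 8 glands (adjusted p = 0.124, limma), and it was -4.11 (standard error 0.610, adjusted p = 0.00446), 17.3-fold lower, without FVB gland 3. The exact two-sided permutation p was 0.0357 over 8 glands and 0.0571 without FVB gland 3, in each case the smallest possible. It is shared by every probe set without overlap (7.56% with 8 glands, 21.1% without FVB gland 3). Wap too was chosen with earlier results of these data known. Csn2 was 13.29, 12.62 and 12.97 in FVB glands and 12.40 and 13.03 in F1 MMTV-ErbB2 glands, against 13.95, 14.05 and 13.99 in wild type glands. All 5 were again below all 3, by a difference of -1.14 (adjusted p = 0.108) and of -1.17 without FVB gland 3 (0.00819). The wild type values stood near the top of the scale, as the highest value of any probe set in a gland was 14.76.

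Of the 13 measured genes of milk proteins and secretion, 0 passed with 8 glands, and without FVB gland 3 8 fell and 0 rose, with a median difference of -1.0. Over all genes with a symbol, 4.41% fell without this gland. The 8 milk genes that fell were Wap, Csn1s1, Csn1s2a, Csn2, Btn1a1 and Mfge8, which coat milk fat globules, Plin2, a lipid droplet protein, and Olah, the thioesterase that releases medium-chain fatty acids. Olah, for example, was 6.30, 6.17 and 6.40 in FVB glands and 5.82 and 6.02 in F1 MMTV-ErbB2 glands, against 7.22, 8.39 and 7.89 in wild type glands. Stat5a had a difference of 0.11 without FVB gland 3 (adjusted p = 0.678, limma). Elf5, the alveolar transcription factor, fell by 2.29 on the log2 scale (adjusted p = 0.0032), and Stat5b and Id2 rose by 1.01 and 1.18. Among 13 genes of fatty acid synthesis, 0 rose and 4 fell without FVB gland 3, which were Acaca, Fasn, Scd1 and Thrsp, with differences from -1.58 (Thrsp) to -0.62 (Scd1).

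Genes of both epithelial layers were lower too, with a larger median difference for the basal list than for the luminal list, which was not tested. Of 10 basal and myoepithelial genes, Cnn1 fell with all 8 glands, and 9 fell and 0 rose without FVB gland 3, with a median difference of -2.12. The share of all genes that fell without this gland was 4.41%. Cnn1 was 6.66, 7.18 and 8.17 in FVB glands and 6.77 and 7.38 in F1 MMTV-ErbB2 glands, against 9.71, 9.87 and 10.01 in wild type glands, a difference of -2.63 (adjusted p = 0.0458, limma). The basal keratin gene Krt14 was 8.53, 9.17 and 11.12 in FVB glands and 8.45 and 9.66 in F1 MMTV-ErbB2 glands, against 12.04, 12.14 and 12.15 in wild type glands. FVB gland 3 was the highest of the 5 and still below wild type, and the difference was -2.72 (adjusted p = 0.114) with 8 glands and -3.16 (0.00071) without it. Oxtr, the oxytocin receptor gene, was the member that did not pass without FVB gland 3 (-0.54, adjusted p = 0.109).

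Of 10 luminal genes, 0 passed with 8 glands, and without FVB gland 3 8 fell and 0 rose, with a median of -1.64, beside 4.41% of all genes that fell. Krt19 was 9.10, 9.74 and 10.49 in FVB glands and 9.47 and 11.04 in F1 MMTV-ErbB2 glands, against 12.04, 12.49 and 11.88 in wild type glands. Cdh1, which encodes E-cadherin, was 9.26, 9.46 and 9.92 in FVB glands and 9.06 and 10.68 in F1 MMTV-ErbB2 glands, against 11.82, 11.95 and 11.46 in wild type glands. In both genes F1 gland 2 was the highest of the 5, and no MMTV-ErbB2 gland reached the wild type range. Krt8 and Krt18 fell by 1.04 and 1.07 on the log2 scale without FVB gland 3, beside 2.37 for the basal keratin gene Krt5. The mean level of the 10 luminal genes ranged from 9.56 to 10.62 in MMTV-ErbB2 glands and from 11.05 to 11.73 in wild type glands. The mean level of the 10 basal genes ranged from 7.93 to 9.36 in MMTV-ErbB2 glands and from 10.34 to 10.51 in wild type glands. These lower epithelial levels moved together with the milk genes and with Serpinb5, Muc4, Pigr and Fermt1, and their part in those differences was not tested. Of 10 hormone-sensing luminal genes 7 were measured, and 0 of these, among them Esr1 and Pgr, passed in either fit. Their median difference was 0.02 without FVB gland 3. With 4.41% of all genes falling, 0 of 7 is near that share.

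**Figure D3:**
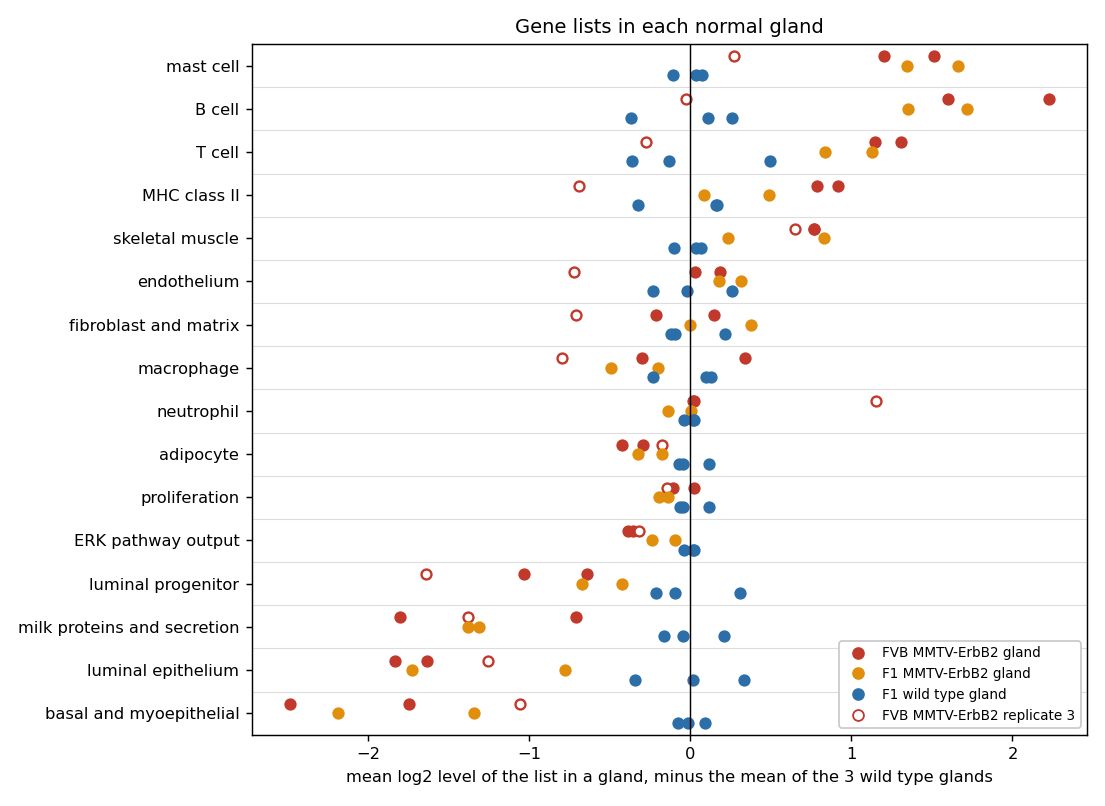
Mean log2 level of 16 gene lists in each normal gland, minus the mean of the 3 wild type glands (x axis), 1 row per list. Points are glands and the open circles are FVB MMTV-ErbB2 replicate 3; in the mast cell, B cell and T cell lists this gland lay near the wild type glands, and in the milk, luminal and basal lists it lay, like the other MMTV-ErbB2 glands, below all wild type glands.

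Lymphocyte genes were higher in the other 4 MMTV-ErbB2 glands. Of 9 B cell genes, 0 passed with 8 glands, and 8 rose and 0 fell without FVB gland 3, with a median of 1.55. Over all genes with a symbol, 6.97% rose without this gland. Cr2, the complement receptor of B cells and follicular dendritic cells, was 8.95, 10.43 and 6.43 in FVB glands and 9.73 and 9.58 in F1 MMTV-ErbB2 glands, against 6.85, 6.30 and 6.14 in wild type glands. FVB gland 3 lay inside the wild type range, and without it the difference was 3.24 (standard error 0.310, adjusted p = 0.00103, limma). Of 12 T cell genes, 0 passed with 8 glands, and 8 rose and 0 fell without FVB gland 3, with a median of 1.11. Ccr7, the receptor that guides T cells and dendritic cells into lymph nodes, was 11.59, 11.82 and 9.05 in FVB glands and 11.79 and 11.07 in F1 MMTV-ErbB2 glands, against 10.05, 8.97 and 9.75 in wild type glands. The cytotoxic genes Cd8a and Cd8b1 had differences of 0.22 and 0.56 without FVB gland 3 and did not pass.

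Other named genes with higher values in MMTV-ErbB2 glands are given singly, and the list of macrophage genes did not move with them, with a median of -0.32 with 8 glands and -0.27 without FVB gland 3. Marco, a scavenger receptor of lymph node and splenic macrophages, was 7.94, 8.97 and 7.02 in FVB glands and 8.83 and 8.85 in F1 MMTV-ErbB2 glands, against 6.17, 6.15 and 6.11 in wild type glands. Lef1, a transcription factor of T cells and of WNT signaling, was 9.08, 9.68 and 7.61 in FVB glands and 9.64 and 9.46 in F1 MMTV-ErbB2 glands, against 7.24, 7.03 and 6.75 in wild type glands. Both had all 5 values above all 3, and neither passed with 8 glands (adjusted p = 0.107 and 0.137, limma), while both rose without FVB gland 3, by 2.50 and 2.46. Lyve1, a hyaluronan receptor of lymphatic vessels, was 10.72, 11.62 and 8.25 in FVB glands and 11.68 and 11.55 in F1 MMTV-ErbB2 glands, against 7.63, 8.34 and 8.23 in wild type glands. For Lyve1, FVB gland 3 lay inside the wild type range. Cd209b, Tagap, Fcmr and Cyp1a1 did not overlap between the groups, with differences from 1.59 to 1.74 with 8 glands that did not pass. No source used here says whether a lymph node was sampled with each gland, and its part in these values was not tested.

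Among the macrophage list of 12, Mertk alone passed without FVB gland 3, and it fell (-1.0, adjusted p = 0.00864, limma). Of 9 MHC class II genes, 4 rose without FVB gland 3, which were H2-Ea, H2-Oa, H2-Ob and Ciita. In the separate comparisons of each background without this gland, 3 of the 9 rose in FVB glands and 0 in F1 glands. The FVB comparison holds genotype and background together. H2-Eb1 was 11.38, 9.50 and 9.94 in FVB glands and 9.76 and 8.70 in F1 MMTV-ErbB2 glands, against 11.16, 10.77 and 11.07 in wild type glands, so that FVB gland 1 alone was above the wild type glands. This gene also differed between FVB tumors (6.92 to 7.57) and F1 tumors (7.51 to 9.98). Of 23 inflammatory genes, Ptgs2, Cxcl1, Cxcl5 and Ccl2 rose without FVB gland 3 and 0 fell. The share of all genes that rose was 6.97%. Il33, an alarmin of stromal cells, was 11.20, 10.64 and 6.78 in FVB glands and 11.73 and 10.68 in F1 MMTV-ErbB2 glands, against 7.85, 7.99 and 7.36 in wild type glands. FVB gland 3 was here below every wild type gland.

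**Figure D4:**
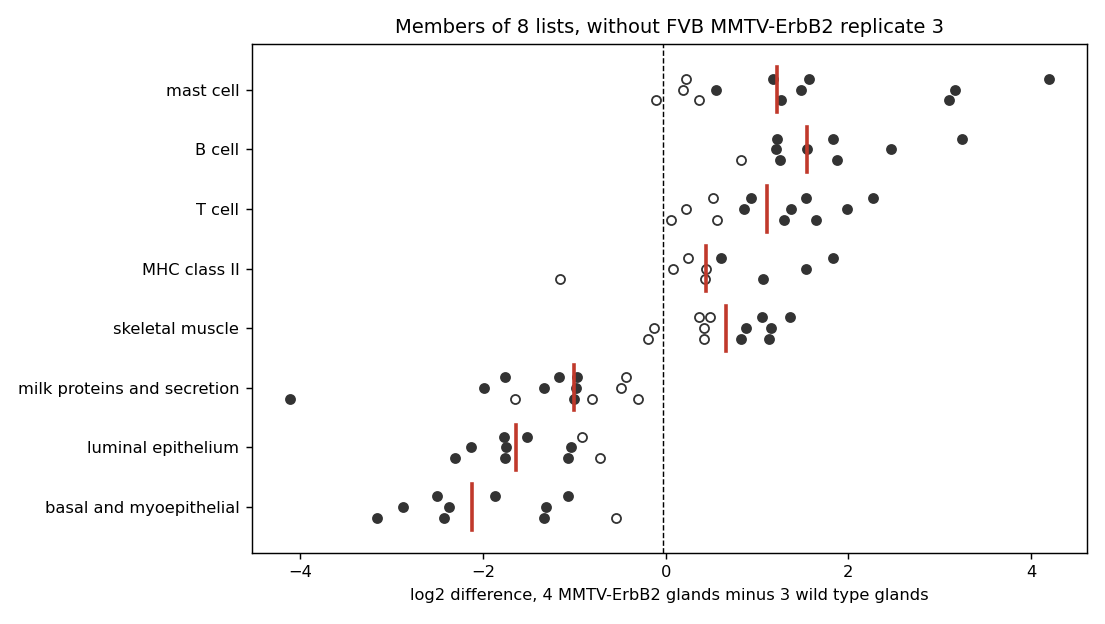
Log2 difference of each member of 8 gene lists between the 4 MMTV-ErbB2 glands other than FVB replicate 3 and the 3 wild type glands (x axis), 1 row per list. Filled points passed the test (adjusted p under 0.05, limma), red bars are medians and the dashed line is the median of all genes with a symbol, -0.03.

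Skeletal muscle genes were somewhat higher in MMTV-ErbB2 glands. Of 12, 0 passed with 8 glands and 6 rose without FVB gland 3, with a median of 0.66, and 7 did not overlap between the 5 and the 3 glands, against 3.42% of all probe sets. Compared separately by background without FVB gland 3, 4 of the 12 rose in FVB glands and 1 in F1 glands. The mean level of the list was 7.10 in F1 MMTV-ErbB2 gland 2, against 6.93, 6.76 and 6.90 in wild type glands. Atp2a1, the calcium pump of fast muscle, was 9.02, 8.80 and 8.52 in FVB glands and 9.01 and 8.03 in F1 MMTV-ErbB2 glands, against 7.57, 7.45 and 7.66 in wild type glands. Myh1 and Myh2, myosin genes of fast fibers, stood between 5.69 and 7.41 in all glands and did not pass. In the lists of proliferation (18 genes), interferon response (13), neutrophils (12), skin keratinocytes (8) and salivary gland (8), 0 genes passed in either fit. Of 12 adipocyte genes, Fabp4 and Pnpla2 fell without FVB gland 3, by 0.93 and 0.83 on the log2 scale, and Adipoq had a difference of 0.09 (adjusted p = 0.785). Over all genes with a symbol, 6.97% rose and 4.41% fell in this fit.

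The MMTV-ErbB2 glands of each labelled background were then compared separately with the same 3 F1 wild type glands. Only the F1 comparison lies within a background, as genotype and background differ together in the FVB comparison. With the spread estimated from all 8 glands, 0 probe sets passed between the 2 F1 MMTV-ErbB2 and the 3 F1 wild type glands (1726 at an unadjusted p under 0.05, lowest adjusted p 0.195, limma). Between the 3 FVB MMTV-ErbB2 and the 3 F1 wild type glands, 3 passed (0.00844%, 2642 at an unadjusted p under 0.05). The groups did not overlap for 6.42% of probe sets with all FVB glands higher and for 6.6% with all lower. The 3 that passed were Pdk4 (-3.77), Serpinb5 (-3.28) and a probe set without a symbol (10516042, -3.61), all lower. Without FVB gland 3, 1060 probe sets passed in the F1 glands (2.98%), with 701 higher (1.97%) and 359 lower (1.01%), and 1851 in the remaining 2 FVB glands (5.21%), with 1093 higher (3.07%) and 758 lower (2.13%). In the same direction in both, 887 passed (2.49%), comprising 572 higher (1.61%) and 315 lower (0.886%). The comparisons share the 3 wild type glands, so these counts are not independent of each other. The FVB counts hold genotype and background together.

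For the main genes, the differences of FVB and of F1 MMTV-ErbB2 glands from the F1 wild type glands were alike in direction without FVB gland 3. Tpsab1 had 3.74 in FVB glands (adjusted p = 0.00455, limma) and 4.66 in F1 glands (0.00314), and Cma1 had 1.49 in FVB glands (0.00662) and 1.47 in F1 glands (0.0114). Wap had -3.69 in FVB glands (0.024) and -4.53 in F1 glands (0.0196), Pdk4 had -3.95 (0.0012) and -2.73 (0.00526), and Krt14 had -3.26 (0.00481) and -3.05 (0.00697). Erbb2 had 1.29 in FVB glands, which did not pass (0.0527), and 1.83 in F1 glands (0.0248). The test of the difference between the backgrounds is the next comparison. Of the 12 mast cell genes, 8 rose in FVB and 7 in F1 glands, and of the 10 basal genes 9 fell in FVB and 7 in F1 glands. For luminal genes the counts were 9 and 3, for B cell genes 8 and 6, and for milk genes 5 and 5. Over all probe sets, 3.07% rose and 2.13% fell in FVB glands, and 1.97% rose and 1.01% fell in F1 glands.

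Between FVB and F1 MMTV-ErbB2 glands, 0 probe sets passed, with 8 glands (481 at an unadjusted p under 0.05, lowest adjusted p 0.817, limma) or without FVB gland 3 (1117, lowest adjusted p 0.125). The groups did not overlap for 8.92% of probe sets with FVB glands higher and for 6.67% with them lower, and the named genes with the largest such differences are given as values. Ptn, the growth factor pleiotrophin, was 7.78, 9.0 and 7.42 in FVB glands, against 9.84 and 10.22 in F1 MMTV-ErbB2 glands, with a difference of -1.96. Without FVB gland 3 it was -1.64. Akr1c14 had -1.88 with all glands and -1.78 without FVB gland 3, and Aldoc had -1.85 and -1.61. The differences of Tpsab1 (-1.99) and Lum (-1.7) rested in large part on FVB gland 3, without which they were -0.91 and -0.29. Retnla, a cytokine-like gene of macrophages and fat, was 10.27, 6.85 and 7.08 in FVB glands, against 6.82 and 6.53 in F1 MMTV-ErbB2 glands, and its difference of 1.39 rested on FVB gland 1. Trim30d likewise was 9.07 in FVB gland 1 and 5.84 and 6.10 in FVB glands 2 and 3, against 5.74 and 5.58 in F1 MMTV-ErbB2 glands. AY036118, AA386476 and Cyp3a44 were highest in FVB gland 3, and their differences of 1.49, 1.36 and 1.16 were 0.53, 0.36 and 0.49 without it.

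Beside FVB gland 3, FVB gland 1 and F1 MMTV-ErbB2 gland 2 were on the other side from their labels by probe set 10375121, although F1 MMTV-ErbB2 gland 2 was not by Hspa8, and the comparisons were also made without F1 MMTV-ErbB2 gland 2 and FVB gland 1. The count between MMTV-ErbB2 and wild type glands was then 0 with FVB gland 3 and 2414 without it (1471 higher, 943 lower). Without all 3, which leaves 1 gland in each MMTV-ErbB2 group and assumes that it varies like the wild type glands, 563 probe sets passed in both backgrounds (333 higher, 230 lower).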

How the data were processed

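RNA of each gland was measured on 1 Affymetrix mouse gene array. The deposited values are log2 expression values, which the authors normalized by RMA in Expression Console, for which no version was found. Precision is limited by how many arrays there were, since intensities carry no read depth. Of 35556 probe sets, 21789 had 1 gene symbol (19938 genes), 1621 several and 12146 none in the platform annotation. Each gene was represented by its probe set of highest mean gland value.

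The 8 glands were fitted alone with limma 3.58.1 in R 4.3.3 (lmFit, eBayes), with 2 groups or 3 group means and Benjamini-Hochberg adjustment over all probe sets. The study's methods name SAM for tumors against normal tissue, and it was not used. Named genes were Erbb2, Wap and Tpsab1, the 10 largest differences in each direction, the 5 largest in each other comparison, filled where too few passed by genes whose groups did not overlap, and members of 37 lists (414 of 452 entries measured). The lists and genes were chosen with earlier results of these data known, and lists were described by counts and medians without a test. Nothing says that replicates came from separate animals, so p-values measure the spread between these samples. Alternatives were the spread of all arrays, the prior, array weights, a filter on low signal, scaling, a replicate block, thresholds and leaving out glands.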

Additional observations from a re-analysis of the deposited data

Results flagged for a closer look

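In the 5 MMTV-ErbB2 glands, 77 values were examined (array statistics, named genes and mean levels of lists), and in 23 of them a single gland lay far from the other 4. Chance flags about 5% of independent groups, but these values share the same arrays and some genes were named for their differences between the glands, so that rate is no fair comparison here. FVB gland 3 was that gland in 21 and FVB gland 1 in 2.

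FVB gland 3 was low in the interquartile range of its array (1.86) and high in its median (7.40). Among named genes it was low for Mcpt4 (8.22), Lef1 (7.61), Lyve1 (8.25), Il33 (6.78), Cpa3 (6.81) and Lum (6.56), and high for Fabp3 (9.06), AY036118 (13.45) and AA386476 (10.67). Among lists, its mean log2 level was low for PI3K, AKT and mTOR components (8.23), prolactin and STAT5 signaling (8.29), endothelium (8.23), inflammatory cytokines and chemokines (8.93), heat shock chaperones (10.63), the circadian clock (8.29) and housekeeping genes (9.83). It was high for brown adipocytes (7.15), neutrophils (7.73) and skin keratinocytes (7.10). Lists with high levels in the other glands were thus lower in FVB gland 3 and lists with low levels were higher.

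FVB gland 1 was high for Retnla (10.27, against 6.53 to 7.08 in the other 4) and Trim30d (9.07, against 5.58 to 6.10). No named gene or list had all FVB glands on one side of the wild type glands and all F1 MMTV-ErbB2 glands on the other.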

How the results depend on the processing

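The calls depended on FVB gland 3 and on how the spread was estimated. Between MMTV-ErbB2 and wild type glands, the count of 42 became 1646 with the spread shared with all arrays, 3746 with array weights, 6 with a trend and robust prior, 12 after quantile normalization, 98 with 1 probe set per gene, 4 with equally weighted group means, 1186 in F1 glands alone and 0 at an FDR of at most 0.005 with a fold of at least 2. It ranged from 0 to 3569 when 1 or more glands were left out. In F1 glands the count of 0 ranged from 0 to 1060 over single glands left out. It became 689 with the shared spread and 1729 with array weights. In FVB against wild type glands the count of 3 became 3183 and 2115 with these settings, 1 after centring, 0 after quantile normalization or at the stricter threshold, 22 with 1 probe set per gene, and from 0 to 1851 over glands left out. Between FVB and F1 MMTV-ErbB2 glands, 2592 passed with the shared spread. Calls in both backgrounds numbered 384 with the shared spread and 1235 with array weights, and from 0 to 887 over glands left out.

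After the values were seen, the glands that went against their background labels by probe set 10375121 were also left out. Without the 2 tumors titled like backcross tumors, 10 probe sets in place of 3 separated FVB from F1 tumors. Without F1 MMTV-ErbB2 gland 2 and FVB gland 1 the counts were 0 for MMTV-ErbB2 and 0 for FVB against wild type glands, and without FVB gland 3 as well they were 2414 in all, 1089 in F1, 1002 in FVB and 563 in both backgrounds.

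Erbb2 passed with the shared spread (1.63), array weights (1.58), in F1 glands alone (1.83) and without the 3 doubted glands (1.11), and ranged from 1.49 to 1.85 over single glands left out. Wap passed under the same settings (-3.69, -4.00, -4.53 and -5.01), with -4.11 to -3.29 over glands left out, and Tpsab1 likewise (3.46, 4.24, 4.66 and 4.45), with 3.0 to 4.20. Of the values of other named genes under alternatives, 475 kept their direction and side of the threshold, 83 newly passed, 25 turned in sign, all of genes that did not pass with 8 glands, and the rest no longer passed. AY036118 turned to -0.46 (array weights), -0.72 (F1 glands alone) and -0.52 (3 glands left out), and ranged from -0.46 to 0.42 over single glands left out. AA386476 turned to -0.62 (array weights), -0.01 (centring), -0.12 (equal weights), -0.80 (F1 glands alone) and -0.63 (3 glands left out), with -0.62 to 0.27 over single glands. Cyp3a44 turned to -0.09 (F1 glands alone) and -0.06 (3 glands left out). Lum turned to 0.40 (array weights), 0.55 (F1 glands alone) and 0.48 (3 glands left out), with -0.76 to 0.41 over single glands. Aldoc turned to -0.52 and -0.24 with 2 and 3 glands left out, with -0.19 to 0.59 over single glands.

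Deviations of glands with the same replicate number correlated at -0.19 to 0.39, and those of glands with other numbers at -0.39 to 0.33. Deviations within such small groups depend on each other, so whether replicate numbers pair the glands could not be decided. With the number as a replicate block, 12 probe sets passed (1 higher, 11 lower) and 0 between FVB and wild type glands, and Aldoc was at 0.00. The cause of these changes was not tested.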

Other observations

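Some genes of the other stromal and systemic lists passed the test between MMTV-ErbB2 and wild type glands, though only without FVB gland 3. Over all genes with a symbol, 6.97% rose and 4.41% fell without FVB gland 3. Without FVB gland 3, Saa1, Saa2 and Hp, which encode acute phase proteins that mammary epithelium also makes, fell by 1.75, 2.48 and 1.43 on the log2 scale, and Cfb, complement factor B, rose by 0.68, among 12 genes of complement and the acute phase. Of 15 fibroblast and matrix genes, Pdgfra and Dpt rose, by 0.86 and 1.21, and of 11 endothelial genes Emcn and Egfl7 rose, by 1.08 and 0.65. Sox10, a transcription factor of Schwann cells that mammary epithelial cells also express, fell by 1.23 on the log2 scale and was the only member of 5 Schwann cell genes that passed. Of these lists, 0 genes passed with all 8 glands (limma, adjusted p under 0.05).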
